A study of Mus musculus with 10 samples.

Results

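The genes described here are 10 members of the transgelin, calponin and smooth muscle contractile families in cultures of adult mouse neural stem and progenitor cells (NSC/NPCs). They are the 3 transgelins Tagln, Tagln2 and Tagln3, the smooth muscle alpha-actin gene Acta2, the calponins Cnn1, Cnn2 and Cnn3, the myosin regulatory light chain gene Myl9, and the tropomyosins Tpm1 and Tpm2. All 10 were found by Ensembl identifier among the 48795 genes listed. The group was selected because Tagln2 was lower and Acta2 higher after mitogen withdrawal in these same libraries, so the stage changes of the members are given as a description, with no p. RNA was sequenced from NSC/NPC cultures of the subependymal zone of mice aged 10 weeks. The mice were either wild type (WT) or had the genotype label Cdkn1b (p27KO), which stands for mice that lack the cell cycle inhibitor p27. Proliferating cells (PRO) were 3 DIV (days in vitro) neurospheres, floating aggregates grown with 20 ng/ml EGF and 10 ng/ml FGF. Cells at the onset of differentiation (DIFF, or 2 + 1 DIV) came from secondary neurospheres seeded at 40000 cells/cm2 on Matrigel, kept for 2 days with FGF and collected 24 h after the mitogens were replaced by 2% fetal bovine serum. There were 3 libraries of WT PRO, 3 of WT DIFF, 2 of p27KO PRO and 2 of p27KO DIFF. Mitogen withdrawal, attachment to Matrigel and serum therefore separate the stages together and cannot be told apart.

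Transgelins and calponins are actin-binding proteins that share a calponin homology domain, and together with alpha-actin, tropomyosin and the regulatory light chain of myosin they form or control the contractile apparatus of smooth muscle. Acta2, Tagln, Cnn1 and Myl9 are used as markers of smooth muscle cells, pericytes and myofibroblasts, whereas Tagln2, Cnn3 and Tpm1 are also made in many cells that are not muscle, and Tagln3 is known as the neuronal transgelin. Many smooth muscle genes are controlled by serum response factor (SRF), which binds a DNA element named the CArG box and works with the cofactors myocardin and the myocardin-related factors.

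The promoters of 4 genes are shown because they cover the 3 patterns found here: Tagln2 was far lower at 2 + 1 DIV, Acta2 and Myl9 were higher, and Cnn2 moved little. Each window runs from 250 bases before the start that RefSeq gives the gene to 50 bases from it, written 5′ to 3′ on the strand of the gene, on GRCm38.p6. These starts can differ from the ends of the genes given with the values, which are those of GENCODE M21. Capitals mark an exact match to the CArG box, searched by the consensus of SRF on both strands. Windows without capitals hold no exact match. Stretches that differ from the consensus by a base, such as ccctatatgg and ccttgtttgg in the Acta2 window, are not marked.
Tagln2, chr1:172499996-172500295, plus strand: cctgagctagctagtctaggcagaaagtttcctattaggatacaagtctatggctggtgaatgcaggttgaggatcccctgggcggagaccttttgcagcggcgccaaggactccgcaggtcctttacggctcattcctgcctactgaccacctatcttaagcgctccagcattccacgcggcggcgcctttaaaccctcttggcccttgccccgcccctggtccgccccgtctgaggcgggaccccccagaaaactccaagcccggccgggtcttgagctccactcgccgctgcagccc
Acta2, chr19:34255324-34255623, minus strand: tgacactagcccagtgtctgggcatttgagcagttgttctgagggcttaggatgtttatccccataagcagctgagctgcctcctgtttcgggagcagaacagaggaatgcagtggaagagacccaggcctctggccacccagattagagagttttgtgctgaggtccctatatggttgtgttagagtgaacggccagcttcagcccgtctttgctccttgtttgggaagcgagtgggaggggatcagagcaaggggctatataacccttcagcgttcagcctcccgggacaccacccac
Myl9, chr2:156775214-156775513, plus strand: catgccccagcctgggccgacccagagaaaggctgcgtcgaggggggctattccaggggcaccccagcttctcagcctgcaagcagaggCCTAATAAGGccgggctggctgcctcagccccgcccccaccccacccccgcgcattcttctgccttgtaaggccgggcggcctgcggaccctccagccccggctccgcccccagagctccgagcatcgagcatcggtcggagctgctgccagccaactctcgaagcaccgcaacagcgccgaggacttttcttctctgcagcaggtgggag
Cnn2, chr10:79988350-79988649, plus strand: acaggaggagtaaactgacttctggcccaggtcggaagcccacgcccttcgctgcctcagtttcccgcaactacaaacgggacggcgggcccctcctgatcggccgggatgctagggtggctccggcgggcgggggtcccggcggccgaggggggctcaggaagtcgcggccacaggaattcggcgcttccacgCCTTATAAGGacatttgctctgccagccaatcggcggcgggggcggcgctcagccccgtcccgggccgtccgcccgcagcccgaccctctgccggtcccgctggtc

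Of the 10 genes, 9 had a promoter in the RefSeq table, and Tagln had no entry. An exact match to the CArG box was found in 2 of these 9 windows. They were that of Myl9, 161 bases before its start, and that of Cnn2, 56 bases before its start. Over all 32851 promoter windows of 27025 genes, 535 held one, or 1.63%. The Acta2 window, at 54.7% G and C, lay near the median of 52.7% over all windows, and those of Tagln2, Myl9 and Cnn2 were richer, at 61.3%, 68.3% and 70.7%. These matches describe letters in a short window and were not set against any binding or accessibility data.

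Totals ranged from 19190068 to 25291674 counts per library, and the level of a gene is given as CPM, that is, relative to the total of its library. A gene was dropped when 4 or more of the 10 libraries had it under 1 CPM, which left 12859 genes and 7 of the 10 members. Tagln3, Cnn1 and Tpm2 did not pass. The targeted gene Cdkn1b was read in every library labelled p27KO, with PRO values of 113.8 and 90.74 CPM and DIFF values of 140.2 and 137.2 CPM. Its WT means were 106.7 ± 5.12 CPM in PRO and 206.8 ± 1.68 CPM in DIFF (SD, n = 3 each), and the description field of the p27KO samples speaks of WT cells. Xist lay at 1.157 to 2.57 CPM in the 6 WT libraries and at 2258 to 3595 CPM in the 4 labelled p27KO, with 4 Y-linked genes reversed, so genotype and sex cannot be told apart. The 6 markers of neural stem and progenitor cells summed to 4594 to 5427 CPM in neurospheres and 5517 to 7011 CPM at 2 + 1 DIV, most of it from Fabp7, Nes and Slc1a3, and they moved apart. In WT, Nes fell from 1515 to 2012 CPM to 156.4 to 237.8 CPM, Msi1 and Slc1a3 rose, and the other 3 were not called.

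Tagln2 was the transgelin of proliferating NSC/NPCs. Tagln2 (ENSMUSG00000026547), on the plus strand of chromosome 1 of GRCm38 from 172500047 to 172507380, encodes an actin-binding transgelin found outside muscle. Its level was 412.8, 318.2 and 349.5 CPM in the WT neurospheres and 4.326, 2.777 and 3.717 CPM in WT cells at 2 + 1 DIV. In the libraries labelled p27KO it was 267.5 and 397.1 CPM in neurospheres and 4.242 and 2.698 CPM at 2 + 1 DIV. All 5 neurosphere libraries were far above all 5 libraries at 2 + 1 DIV, and within each stage the genotypes overlapped. The lower group still held 60 to 107 counts per library, so the gene was detected in every library. The ratio of the group means was 99.9 in WT and 95.8 in p27KO, with fitted log2 fold changes of -6.66 (standard error 0.26) and -6.60 (standard error 0.31). In bulk RNA, fewer cells that use a gene and less RNA per cell cannot be told apart.

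The other transgelins were low. Tagln (ENSMUSG00000032085, chromosome 9, 45929619 to 45936058, minus strand), also known as SM22 and an early marker of smooth muscle, lay at 0.8338, 1.077 and 1.429 CPM in WT neurospheres and at 3.562, 3.316 and 3.242 CPM in WT cells at 2 + 1 DIV. In p27KO it lay at 1.074 and 1.230 CPM in neurospheres and at 4.242 and 5.891 CPM at 2 + 1 DIV. Every library at 2 + 1 DIV was above every neurosphere library, and both p27KO libraries at 2 + 1 DIV were above the 3 of WT. The fitted stage change of Tagln was 1.58 (standard error 0.24) in WT and 2.11 (standard error 0.29) in p27KO on the log2 scale. Of its 1988 exon bases, 1241 overlap the antisense gene Gm48529 and 108 overlap Pcsk7 on the other strand, and as the counting is not stated to use strand, reads of these genes cannot be told apart. Tagln3 (ENSMUSG00000022658, chromosome 16, 45711230 to 45724608, minus strand) ranged from 0.4757 to 2.886 CPM over the 10 libraries. Its WT groups overlapped, the highest value being WT DIFF replicate 3 at 2.886 CPM, whereas both p27KO libraries at 2 + 1 DIV, at 0.4757 and 0.9443 CPM, were below those of p27KO neurospheres, at 1.157 and 1.230 CPM.

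The make-up of the transgelin family differed between the stages. Per kilobase of exon, which allows levels to be set side by side between genes, Tagln2 took 99.39, 99.23 and 98.83% of the summed transgelin level in WT neurospheres and 98.87 and 99.16% in p27KO neurospheres. At 2 + 1 DIV its share was 47.19, 33.03 and 31.08% in WT and 44.73 and 25.81% in p27KO. Tagln then took 28.39 to 41.31% in WT and 46.85 and 59.02% in p27KO, while Tagln3 took 12.12 to 40.53% and 8.423 and 15.17%. The summed level of the 3 genes went from 130.0 to 199.5 CPM per kb in neurospheres to 4.038 to 5.744 CPM per kb at 2 + 1 DIV. The shares rest on reads that RSEM divided between similar genes where they could not be placed, and those of Tagln3 on few counts.

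**Figure D1:**
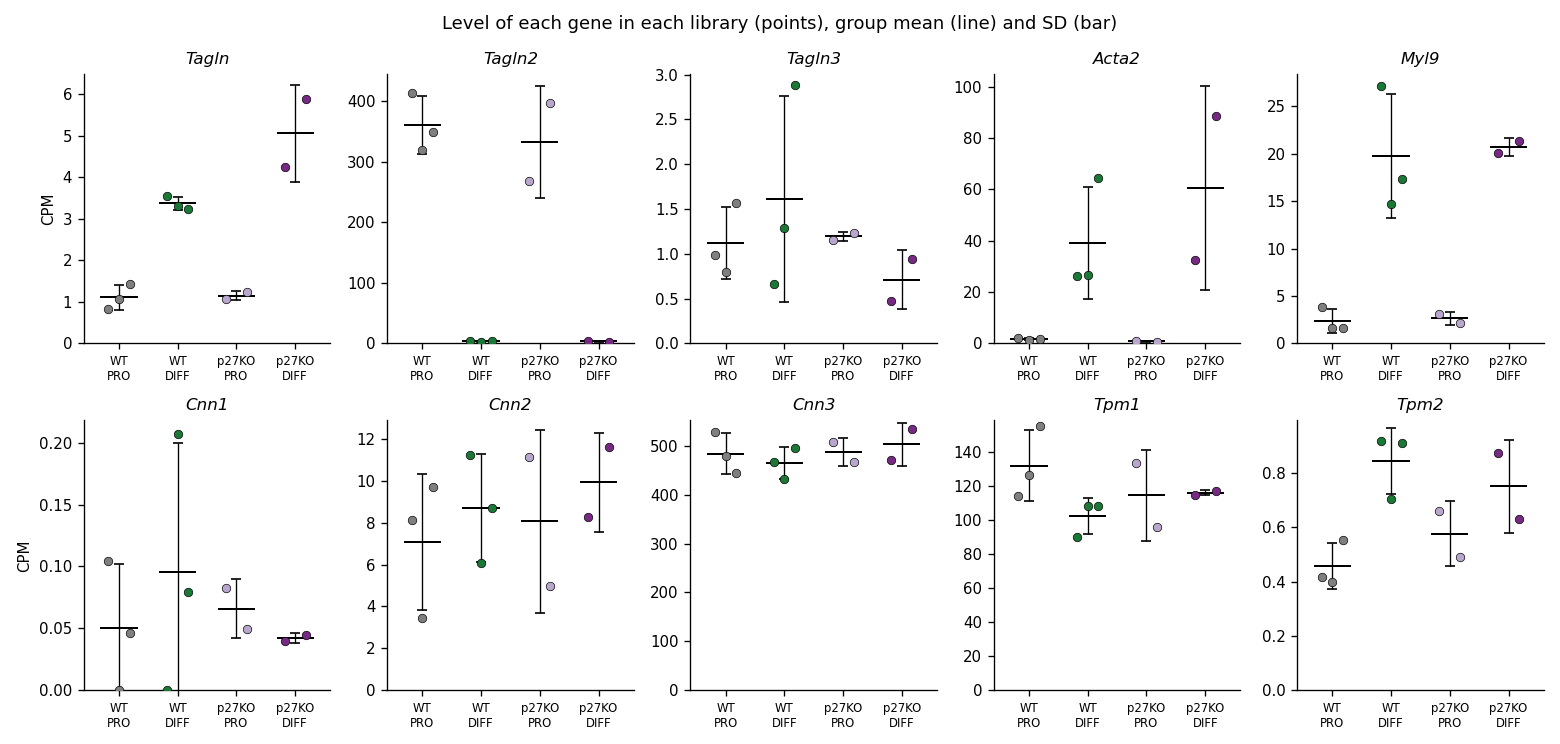
CPM of each of the 10 genes (vertical axes, linear, each panel on its own scale) in the 4 groups, with 1 point per library, the group mean as a line and its SD as a bar. Tagln2 lies between 267.5 and 412.8 CPM in neurospheres and under 5 CPM at 2 + 1 DIV, Acta2 and Myl9 lie higher in every DIFF library, and Cnn3 stays between 431.2 and 533.4 CPM.

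Acta2 was low in neurospheres and higher at 2 + 1 DIV. Acta2 (ENSMUSG00000035783), on the minus strand of chromosome 19 from 34241090 to 34255590, encodes smooth muscle alpha-actin. Its level was 1.928, 1.516 and 1.706 CPM in WT neurospheres and 26.21, 26.61 and 64.25 CPM in WT cells at 2 + 1 DIV. In p27KO it was 0.9089 and 0.7378 CPM in neurospheres and 32.51 and 88.54 CPM at 2 + 1 DIV. All libraries at 2 + 1 DIV were above all neurospheres, 1 library of each genotype stood well above the others of its group, and p27KO neurospheres, with 22 and 15 counts, were below the WT ones, with 37 or 38. The ratio of the group means was 22.7 in WT and 73.5 in p27KO, and the fitted log2 fold changes were 4.50 (standard error 0.52) and 6.15 (standard error 0.70). Without p27KO DIFF replicate 2 the p27KO change was 5.27.

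Among the actins, Acta2 was a minor gene. Its share of the summed per-kilobase level of Actb, Actg1 and Acta2 was 0.04068 to 0.05131% in WT neurospheres and 0.02675 and 0.02321% in p27KO neurospheres. At 2 + 1 DIV it was 1.468, 1.85 and 4.406% in WT and 2.554 and 5.818% in p27KO. The cytoplasmic beta-actin gene Actb held 52.67 to 56.92% in every library. The summed level of the 3 actins was 1448 to 1711 CPM per kb in neurospheres and 579.6 to 812.9 CPM per kb at 2 + 1 DIV.

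Myl9 followed the direction of Acta2. Myl9 (ENSMUSG00000067818, chromosome 2, 156775420 to 156781658, plus strand) encodes a regulatory light chain, the myosin subunit whose phosphorylation switches on contraction in smooth muscle. It lay at 3.804, 1.635 and 1.66 CPM in WT neurospheres and at 27.13, 14.71 and 17.32 CPM in WT cells at 2 + 1 DIV. In p27KO it lay at 3.099 and 2.164 CPM in neurospheres and at 20.02 and 21.36 CPM at 2 + 1 DIV. The stages did not overlap in either genotype, whereas the genotypes overlapped at both stages. The fitted stage changes of Myl9 were 3.06 (standard error 0.35) in WT and 2.94 (standard error 0.42) in p27KO on the log2 scale. The library highest in Acta2 among WT DIFF, replicate 3, was not the highest in Myl9, which was replicate 1. Of the summed per-kilobase level of Myl9, Myl12a and Myl12b, Myl9 took 3.068 ± 1.30% (SD, n = 3) in WT neurospheres and 30.09 ± 8.81% (SD, n = 3) at 2 + 1 DIV. The nonmuscle light chain gene Myl12a went from 60.19 ± 0.331% to 22.92 ± 0.777% (SD, n = 3 each), and the summed level of the family stayed between 53.47 and 71.7 CPM per kb in all 10 libraries.

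The calponins, actin-binding proteins that restrain actomyosin, lay at similar levels in both stages. Cnn3 (ENSMUSG00000053931, chromosome 3, 121426497 to 121458207, plus strand), the calponin of many nonmuscle and neural cells, had the highest calponin level and took 97.12 to 99.12% of the summed per-kilobase level of the family in every library. It lay at 527.3, 479.1 and 444.4 CPM in WT neurospheres and at 467.8, 431.2 and 494.9 CPM in WT cells at 2 + 1 DIV. In p27KO it lay at 508.1 and 467.2 CPM in neurospheres and at 471.9 and 533.4 CPM at 2 + 1 DIV. All 4 groups overlapped, and the fitted stage changes of Cnn3 were -0.07 (standard error 0.088) and 0.02 (standard error 0.11). Of its 3037 exon bases, 538 overlap the antisense gene Gm42928.

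Cnn2 (ENSMUSG00000004665, chromosome 10, 79988584 to 79996062, plus strand), a calponin of smooth muscle and other cells, ranged from 3.43 to 11.6 CPM with all groups overlapping. Its fitted stage changes were 0.28 (standard error 0.42) in WT and 0.27 (standard error 0.50) in p27KO. The p27KO value was 0.96 without p27KO PRO replicate 1 and -0.18 without p27KO PRO replicate 2, and the WT value was -0.05 without WT PRO replicate 2. Cnn1 (ENSMUSG00000001349, chromosome 9, 22099216 to 22109630, plus strand), the marker of differentiated smooth muscle, had 0 to 5 counts per library, or up to 0.2072 CPM, and was at 0 in WT PRO replicate 2 and WT DIFF replicate 1. At 19649261 counts, the limit of 3 counts that a count of 0 allows in WT DIFF replicate 1 is 0.153 CPM.

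Of the tropomyosins, rod proteins that lie along actin filaments, Tpm1 was well expressed and Tpm2 was hardly detected. Tpm1 (ENSMUSG00000032366, chromosome 9, 67022590 to 67049406, minus strand) was at 114.3, 126.5 and 155.1 CPM in WT neurospheres and at 89.83, 108 and 108.4 CPM in WT cells at 2 + 1 DIV. In p27KO it was at 133.2 and 95.66 CPM in neurospheres and at 114.9 and 117.0 CPM at 2 + 1 DIV. The WT stages did not overlap, the p27KO stages did, and both p27KO libraries at 2 + 1 DIV were above the 3 of WT. The fitted stage change of Tpm1 was -0.38 (standard error 0.14) in WT and -0.00 (standard error 0.18) in p27KO. Tpm2 (ENSMUSG00000028464, chromosome 4, 43514711 to 43523765, minus strand), the beta-tropomyosin of muscle, stayed under 1 CPM in all 10 libraries, at 0.3989 to 0.5533 CPM in WT neurospheres and 0.7046 to 0.9161 CPM in WT cells at 2 + 1 DIV, and its p27KO stages overlapped. Per kilobase, the share of Tpm1 among the 4 tropomyosin genes was 10.6 ± 1.32% (SD, n = 3) in WT neurospheres and 24.81 ± 1.40% (SD, n = 3) at 2 + 1 DIV, while that of the nonmuscle gene Tpm4 was 62.64 ± 0.773% and 35.26 ± 2.93%. The summed tropomyosin level was 173.8 to 198.9 CPM per kb in neurospheres and 56.05 to 77.87 CPM per kb at 2 + 1 DIV, so the larger share of Tpm1 went with a lower family total. The exons of Tpm1 sum to 6485 bases over alternative ends, which lowers its value per kilobase.

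**Figure D2:**
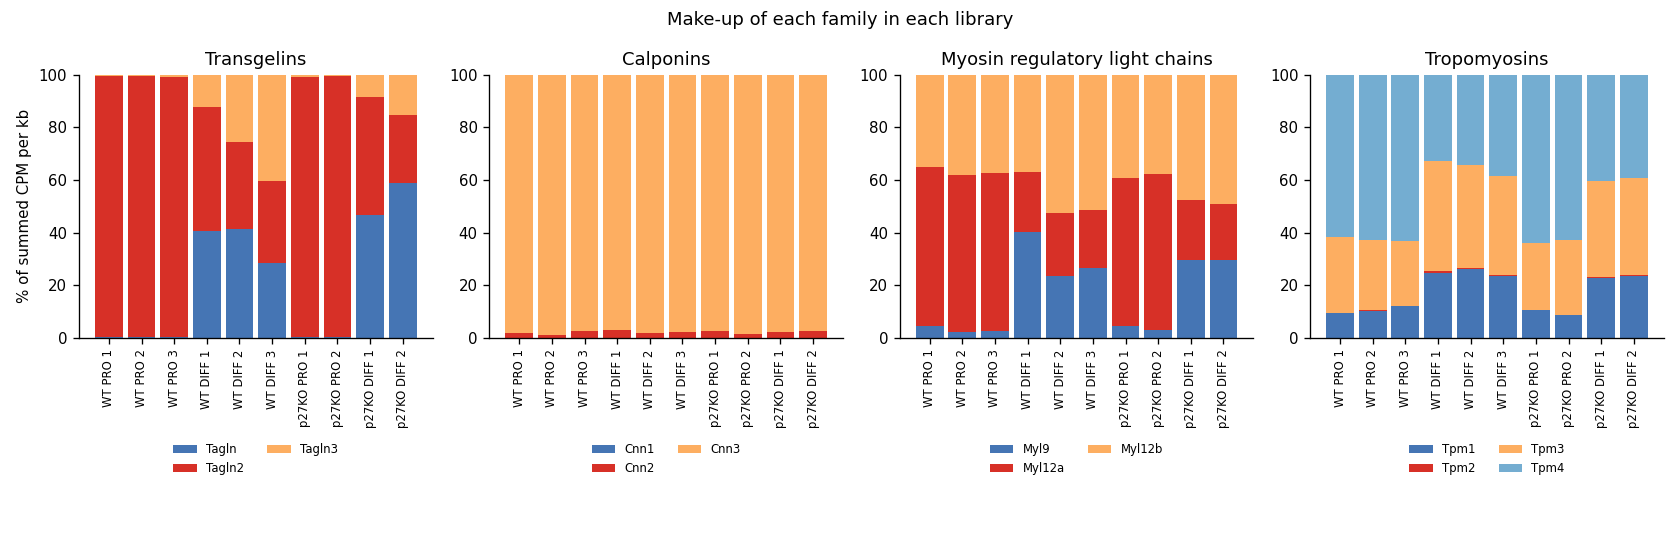
Share of each gene in the summed CPM per kb of its family (vertical axis, %) in each of the 10 libraries, for transgelins, calponins, myosin regulatory light chains and tropomyosins. Tagln2 takes 98.83 to 99.39% of the transgelins in neurospheres and 25.81 to 47.19% at 2 + 1 DIV, Myl9 and Tpm1 take larger shares at 2 + 1 DIV, and Cnn3 takes 97.12% or more of the calponins.

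Set in order per kilobase, the WT neurosphere levels ran from Tagln2 at 173 ± 23.2 and Cnn3 at 159.2 ± 13.7 CPM per kb (SD, n = 3 each), which overlapped, through Tpm1 at 20.35 ± 3.23, to Cnn2 at 2.878 ± 1.32 and Myl9 at 2.037 ± 1.07, which also overlapped. Tagln3 at 0.902 ± 0.323, Acta2 at 0.782 ± 0.0940 and Tagln at 0.560 ± 0.151 CPM per kb came next and were not separated beyond their spread. At 2 + 1 DIV in WT the order became Cnn3 at 153.0 ± 10.5, then Acta2 at 17.77 ± 9.95, Myl9 at 16.97 ± 5.63 and Tpm1 at 15.74 ± 1.64 CPM per kb, which did not differ beyond their spread. Cnn2 followed at 3.528 ± 1.05, and Tagln2 at 1.732 ± 0.375, Tagln at 1.697 ± 0.0844 and Tagln3 at 1.299 ± 0.926 CPM per kb lay within each other's spread. Tpm2, at 0.157 and 0.290 CPM per kb, and Cnn1, at 0.0183 and 0.0349 CPM per kb, were lowest at both stages. In p27KO, Cnn3 at 160.6 ± 9.53 and Tagln2 at 159.6 ± 44.0 CPM per kb overlapped in neurospheres, and at 2 + 1 DIV Cnn3 at 165.5 ± 14.3 was followed by Acta2 at 27.56 ± 18.0, Tpm1 at 17.88 ± 0.231 and Myl9 at 17.81 ± 0.815 CPM per kb (SD, n = 2 each).

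Of the 7 members in the fit across all genes, 3 were past an adjusted p of 0.05 as higher (Tagln, Acta2 and Myl9) and 2 as lower (Tagln2 and Tpm1) in WT, by the quasi-likelihood test of edgeR (Benjamini-Hochberg adjustment). Over all 12859 genes the share called was 33.5% higher and 33.9% lower. In p27KO, 3 were past it as higher (Tagln, Acta2 and Myl9) and Tagln2 as lower, beside 27.5% of all genes called higher and 30.2% lower. As the members were chosen by this contrast, nothing is read from these counts.

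The comparison of genotypes, which was not used to choose the members, asks whether these genes differ in cells labelled p27KO. At 2 + 1 DIV, 0 of the 7 members passed edgeR's test, beside 2.04% of all genes, 1 of the 7 had an unadjusted p under 0.05, as did 1901 of the 12859 genes, and DESeq2 also called 0. That member was Tagln, at 3.373 ± 0.168 CPM (SD, n = 3) in WT and 5.066 ± 1.17 CPM (SD, n = 2) in p27KO, which is 0.60 on the log2 scale with a standard error of 0.24 (adjusted p = 0.286, edgeR). Over the alternatives its adjusted p ran from 0.241 to 0.781. Acta2 differed by 0.65 (standard error 0.46, adjusted p = 0.559, edgeR), and the value was -0.24 without p27KO DIFF replicate 2. Tagln2 differed by -0.02 (standard error 0.30, adjusted p = 0.983, edgeR) and Tpm1 by 0.20 (standard error 0.16, adjusted p = 0.609, edgeR). Myl9, Cnn2 and Cnn3 had log2 fold changes of 0.09, 0.21 and 0.13, with adjusted p-values of 0.928, 0.861 and 0.588. The standard errors, up to 0.46 on the log2 scale for Acta2 and Cnn2, leave sizeable differences undetectable with 2 and 3 libraries.

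In neurospheres, 0 of the 7 members passed edgeR's test, 0 had an unadjusted p under 0.05, as did 603 of all genes, and DESeq2 called 0, where edgeR called 0.0156% of all genes. Acta2 had the largest fitted difference of the 7, -1.01 (standard error 0.72, adjusted p = 1.0, edgeR), although the 15 and 22 counts of p27KO were below the 37 and 38 of WT. The other 6 lay between -0.18, for Tpm1, and 0.22, for Cnn2. The difference between the stage changes of the genotypes, the interaction, was tested for the 5 members other than Tagln2 and Acta2. By edgeR 0 of these 5 passed, beside 0.389% of all genes, with 0 at an unadjusted p under 0.05 and 0 called by DESeq2. It was 0.53 (standard error 0.38) for Tagln and 0.38 (standard error 0.23) for Tpm1, both with an adjusted p of 1.0. For the genes that chose the group it is given untested, at 0.06 (standard error 0.37) for Tagln2 and 1.66 (standard error 0.85) for Acta2, which was 0.78 without p27KO DIFF replicate 2.

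**Figure D3:**
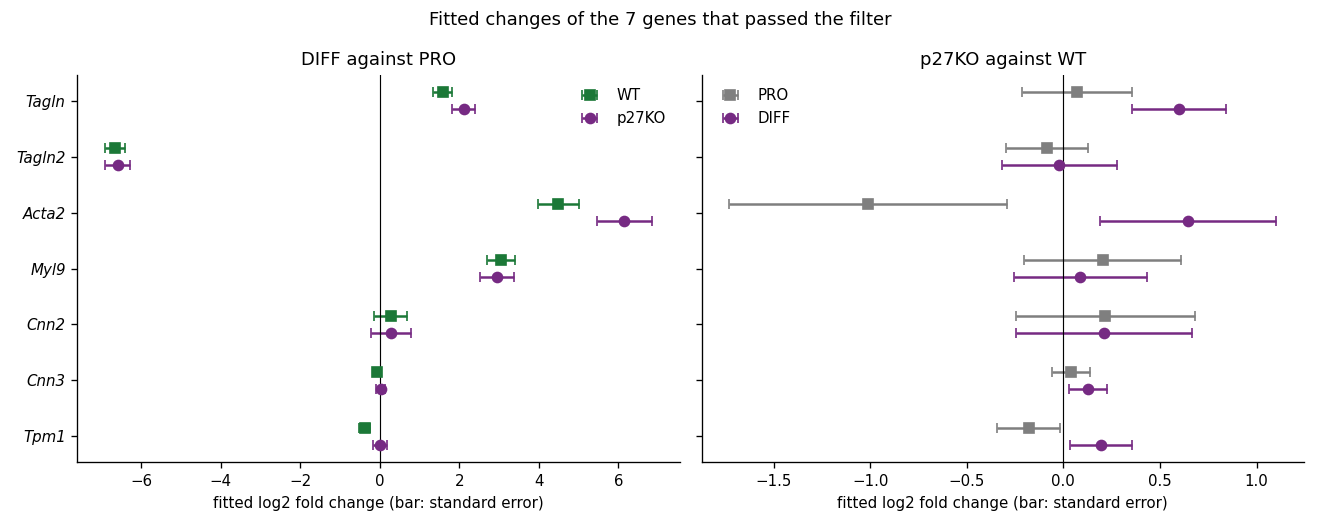
Fitted log2 fold changes (horizontal axes) of the 7 genes that passed the filter, with standard errors as bars, for DIFF against PRO in each genotype on the left and for p27KO against WT at each stage on the right, where the axis is narrower. Tagln2 lies near -6.6 and Acta2, Myl9 and Tagln lie above 0 in both genotypes, and no genotype difference passed the test.

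Genes of the wider contractile programme went in both directions, as did all genes. Of 17 further smooth muscle contractile genes, 10 passed the filter and, in WT at 2 + 1 DIV, 4 rose and 5 fell, beside 33.5 and 33.9% of all genes, with a median log2 fold change of -0.24 beside -0.00 over all genes. Fhl1, a LIM-domain protein of muscle, rose by 1.22, the intermediate filament gene Synm by 1.19 and the actin-nucleating leiomodin gene Lmod1 by 1.07 on the log2 scale. Mylk, the kinase that phosphorylates the regulatory light chain, fell by 4.41, from 55.75 to 116.7 CPM in WT neurospheres to 2.61 to 5.445 CPM. The smoothelin gene Smtn fell by 2.61 and the focal adhesion gene Zyx by 2.30. In p27KO, 3 of the 10 rose and 6 fell, beside 27.5 and 30.2% of all genes. Of those that did not pass the filter, the myosin heavy chain Myh11 had 1 to 13 counts per library, the desmin gene Des 0 to 5, and the enteric actin gene Actg2 0 to 2.

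All 12 genes of the nonmuscle actin and myosin list passed the filter. In WT, 2 rose and 8 fell, beside 33.5 and 33.9% of all genes, with a median of -0.70 beside -0.00 over all genes. In p27KO 2 rose and 7 fell, beside 27.5 and 30.2% of all genes. The actin crosslinker gene Actn1 rose by 1.97 and the nonmuscle myosin heavy chain gene Myh14 by 1.38 on the log2 scale. Tpm4 fell by 2.42, Myl12a by 1.61 and the cytoplasmic actin gene Actg1 by 1.40. Between genotypes, 1 gene of each list passed at 2 + 1 DIV, beside 2.04% of all genes. In neurospheres and in the interaction 0 passed, beside 0.0156 and 0.389% of all genes. Smtn was higher in p27KO, at 13.16 and 12.73 CPM against 7.634, 7.046 and 7.433 CPM (log2 fold change 0.83, adjusted p = 0.0489, edgeR), and Myh10, a nonmuscle myosin heavy chain, was at 341.3 and 396.9 CPM against 273.1, 276.0 and 302.2 CPM (0.39, adjusted p = 0.0489). Neither call held in edgeR with the replicate number as a block, at an adjusted p of 0.0778 for Smtn and 0.0504 for Myh10. That block joined same-numbered WT and p27KO libraries, a link that no source gives. The log2 fold changes of Smtn and Myh10 were then 0.81 and 0.41. DESeq2 called both, at adjusted p-values of 0.00262 and 0.000213. In edgeR both were also lost when any one of the 5 libraries at 2 + 1 DIV or of the 3 WT neurosphere libraries was left out. The adjusted p then reached 0.299 for Smtn, without p27KO DIFF replicate 1, and 0.452 for Myh10, without p27KO DIFF replicate 2.

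The regulators and targets of this programme gave different pictures. Of 15 regulators, among them genes of the SRF and TGF-beta pathways, 13 were tested. In WT 2 rose and 5 fell, beside 33.5 and 33.9% of all genes, with a median of -0.15. In p27KO 2 rose and 4 fell, beside 27.5 and 30.2% of all genes. Srf fell by 0.95, its cofactors Mrtfb and Mrtfa by 0.69 and 0.51, the TGF-beta receptor gene Tgfbr2 by 1.67 and the signal transducer Smad3 by 0.70. The ligand gene Tgfb2 rose by 1.09 and Wwtr1, which encodes the mechanosensitive cofactor TAZ, by 0.40. Myocd, the smooth muscle cofactor of SRF, had 0 to 5 counts per library and was not tested. Of 5 target genes of these pathways, 2 were tested and both rose, beside 33.5% of all genes, with a median of 3.72. The matricellular gene Thbs1 rose by 4.58, from 2.234 to 3.075 CPM in WT neurospheres to 44.79 to 85.88 CPM, and Ccn1 by 2.85. In p27KO both rose as well, to 92.49 and 160.3 CPM for Thbs1 and 47.93 and 56.93 CPM for Ccn1 at 2 + 1 DIV, and neither differed between genotypes past the threshold, at adjusted p-values of 0.164 and 0.248 by edgeR. Serum was present only at 2 + 1 DIV, and its part was not tested.

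**Figure D4:**
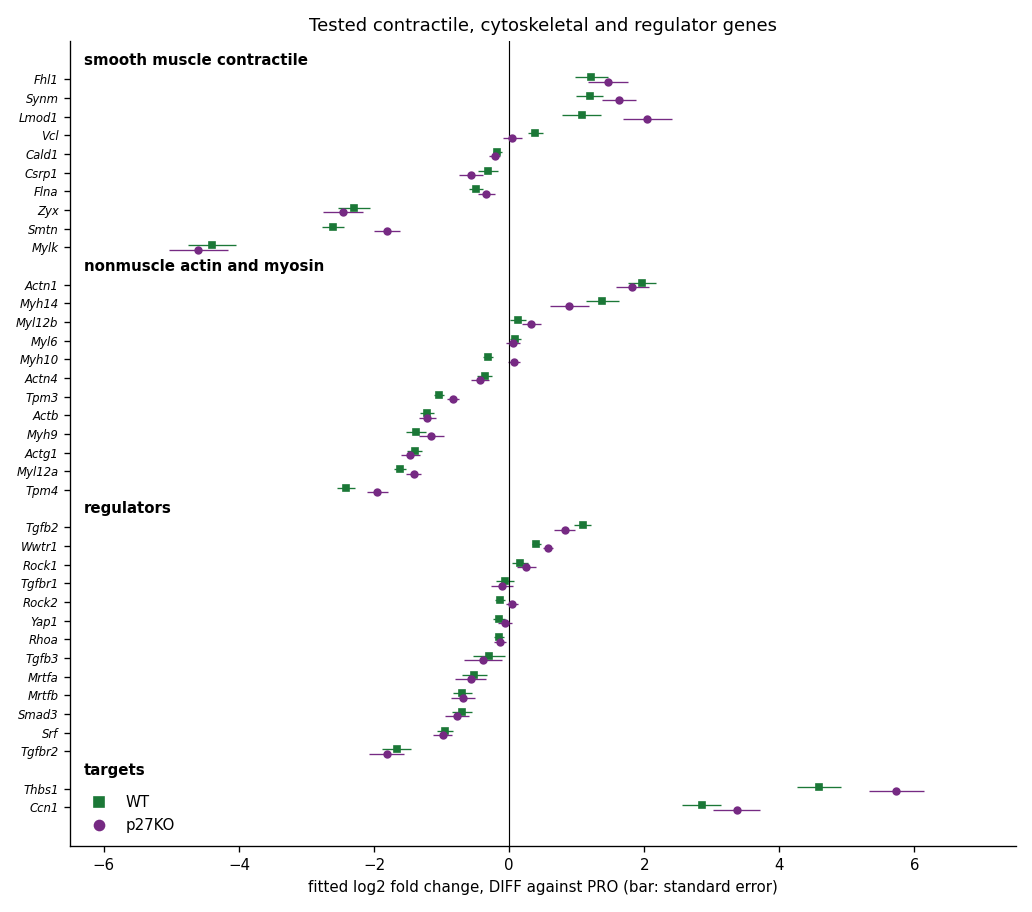
Fitted log2 fold change, DIFF against PRO (horizontal axis), of the tested genes of 4 lists in WT (squares) and p27KO (circles), with standard errors as bars, ordered within each list by the WT value. Contractile and nonmuscle genes spread to both sides of 0, from Mylk at -4.41 to Actn1 at 1.97 in WT, and the targets Thbs1 and Ccn1 lie at 4.58 and 2.85.

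Because Acta2 and Tagln also mark mural cells, the pericytes and smooth muscle cells of vessels, the levels of mural markers are given beside them. Of 7 mural markers, Rgs5, Kcnj8, Abcc9 and Vtn stayed under 1 CPM in all 10 libraries, and 2 passed the filter, of which Notch3 rose and Mcam fell in WT. Their summed level was 116.5 to 156.6 CPM in neurospheres and 226 to 332.1 CPM at 2 + 1 DIV, where most of it came from Notch3, which neural stem cells also express. Pdgfrb, the defining receptor of pericytes, had 0 to 6 counts per library in neurospheres. At 2 + 1 DIV it was at 2.188, 3.026 and 3.717 CPM in WT and 4.44 and 9.488 CPM in p27KO, highest in each group in the library that was highest in Acta2. Notch3 and Mcam, at 221.0 and 6.84 CPM, were lowest among WT DIFF in that library, replicate 3, and highest among p27KO DIFF in replicate 2, at 245.8 and 11.87 CPM. Whether mural cells had a part in the level of Acta2 was not tested.

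Markers of fibroblasts, endothelial cells and microglia were low, and those of astrocytes differed from one to the next. The 5 fibroblast markers summed to 0.3228 to 0.8859 CPM in neurospheres and 0.4349 to 1.629 CPM at 2 + 1 DIV, and 4 of them stayed under 1 CPM in every library. The 5 endothelial markers summed to 2.274 to 3.0 CPM and 4.666 to 10.79 CPM, with Pecam1, Cdh5 and Cldn5 under 1 CPM throughout. Most of this sum came from Kdr, the 1 endothelial marker tested, which was called higher in WT. Kdr went from 1.635 to 2.259 CPM to 4.27 to 9.781 CPM in WT. In p27KO it was at 1.487 and 1.377 CPM and then at 5.075 and 10.25 CPM. The 5 microglial markers summed to at most 0.4559 CPM. The 4 astrocyte markers summed to 117.4 to 229 CPM in neurospheres and to 476.5 to 1045 CPM at 2 + 1 DIV. In neurospheres most of it came from Aldh1l1, at 83.55 to 204.4 CPM, with Gfap at 0.1994 to 1.529 CPM and Aqp4 at 1.291 to 4.69 CPM. At 2 + 1 DIV Gfap was at 94.35, 90.93 and 146.4 CPM in WT and 144.5 and 179.7 CPM in p27KO, highest in the libraries with most Acta2. Aqp4, at 232, 310.5 and 170.9 CPM in WT and 454 and 328.5 CPM in p27KO, was lowest in those libraries. Aldh1l1 was highest in WT DIFF replicate 2 and p27KO DIFF replicate 2, and S100b, at 4.559 to 14.5 CPM, in WT DIFF replicate 1 and p27KO DIFF replicate 2. The S100b means went the other way between the stages, from 19.1 to 12.39 CPM in WT, where the stages overlapped, and from 14.84 to 6.799 CPM in p27KO.

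**Figure D5:**
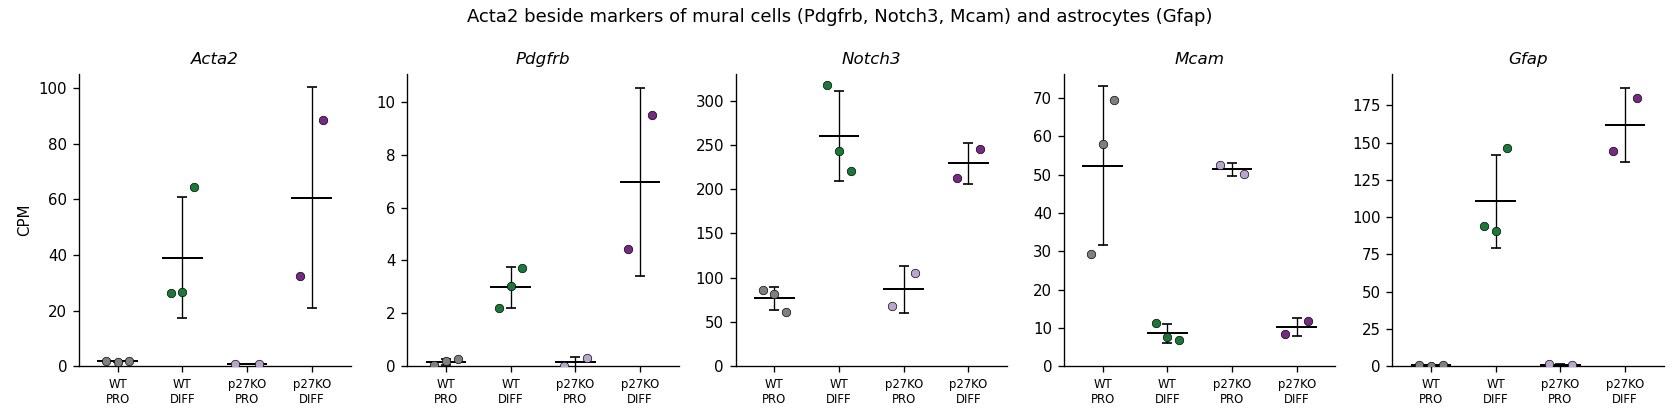
CPM (vertical axes, linear, each on its own scale) of Acta2, the mural markers Pdgfrb, Notch3 and Mcam and the astrocyte marker Gfap in the 4 groups, with 1 point per library, the mean as a line and the SD as a bar. Pdgfrb reaches 9.488 CPM in the library where Acta2 reaches 88.54 CPM, whereas Notch3 is higher and Mcam lower in all DIFF libraries.

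The genes most like Tagln2 over the 10 libraries, by Pearson correlation of log2(CPM + 1) among 9744 genes whose mean was 10 CPM or more, were Chrm3, a muscarinic receptor gene (r = 0.9989), Ccnd1, which encodes cyclin D1 (r = 0.9987), and Lyar, a nucleolar protein gene (r = 0.9984). The 10 points fall into 2 stages, and 1501 genes were over 0.95. Those most like Acta2 were Dgki, a diacylglycerol kinase gene (r = 0.9963), Podxl, which encodes podocalyxin (r = 0.9882), and Wdr20 (r = 0.9879), with 610 genes over 0.95. All 3 were like Acta2 highest within their groups in WT DIFF replicate 3 and p27KO DIFF replicate 2, Podxl at 70.73 and 89.62 CPM. They were chosen by their correlation over these same libraries, so nothing is read from this.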

How the data were processed

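RNA-seq of 10 libraries was analysed as 4 groups of genotype and stage. The authors aligned reads to the mouse transcriptome and deposited expected counts per gene, estimated by RSEM from amplified cDNA libraries and given as whole numbers without normalization. The submitters' processing notes name FastQC, Trimmomatic, cutadapt, STAR, RSEM and DESeq2 with GRCm38 (mm10), and versions are not given in the sources used here. RSEM divides reads shared by similar genes, so that paralogs are uncertain. Depth was 19190068 to 25291674 counts per library, and precision is set mostly by the spread of 2 or 3 replicates, with counting error at low counts. Identifiers were matched to the GENCODE M21 annotation for 48435 of 48795 genes. CPM was scaled to the library total.

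Genes under 1 CPM in 4 or more libraries were dropped, as in the study's methods. Counts were fitted with edgeR 4.0.16 (TMM, robust quasi-likelihood, limma 3.58.1, R 4.3.3) over all libraries, two-sided, adjusted by Benjamini-Hochberg over 12859 genes, with a threshold of 0.05. DESeq2 1.42.0, other size factors and filters, replicate blocks and each library left out were alternatives. Further fits, with the p27KO numbers crossed in the block and with only the 6 WT libraries, were chosen after seeing the data. Same-numbered WT libraries of both stages deviated together, with correlations of 0.2454, 0.2882 and 0.3877. They were taken as pairs from this check alone, since no source says what the numbers mark. Pairs entered only the replicate block alternatives, and the main fit had no block. Unlike the block within genotype, the replicate block also joined same-numbered WT and p27KO libraries, a link that no source gives. The p27KO ones correlated at -0.1221, and at 0.1221 with the numbers crossed. With 2 libraries per group the deviations mirror each other, so this check cannot decide the p27KO pairs. The steps were tested on simulated data. Tables and plots were made with Python 3.11.15, pandas 2.3.3 and matplotlib 3.10.9.

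The members and lists were chosen with earlier results of these data known, and the make-up of families other than the transgelins was computed after values were seen. Named list genes were all those called between genotypes or in the interaction, up to 3 with the largest rise and 3 with the largest fall per list in WT, and Srf, Mrtfa, Mrtfb and Myocd. Cell type markers, untested list genes and Thbs1 and Ccn1 between genotypes were added as values. The genes named as most like Tagln2 and Acta2 were the first 3 by correlation. ATAC-seq data were not analysed here, and a planned result for a single gene is not reported here.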

Additional observations from a re-analysis of the deposited data

How the results depend on the processing

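Across 18 alternative settings, none of the stage values of Tagln, Tagln2, Acta2 and Myl9 changed sign, nor did the WT values of Cnn3 and Tpm1. Stage values near 0 did: that of Cnn2 was -0.0518 in WT without WT PRO replicate 2 and -0.1836 in p27KO without p27KO PRO replicate 2. In p27KO, Cnn3 ran from -0.0607 to 0.0992 and Tpm1 from -0.2130 to 0.2463 over the settings. Of 245 stage values, 6 moved by more than the spread between replicates, all with 1 library left out. The count of members called in a genotype contrast was 0 in every setting. It was also 0 in the interaction, for the members other than Tagln2 and Acta2. That of the p27KO stage change was 4. The WT stage count was 5, or 4 without WT PRO replicate 2 or 3, WT DIFF replicate 1 or 3, or p27KO DIFF replicate 1 or 2. The replicate block left these counts at 5 in WT, 4 in p27KO and 0 in the others, and changed no call of a member. Crossing the p27KO numbers, chosen after seeing the data, gave the same counts. In the main fit the shares of all genes called were 33.5% higher and 33.9% lower in WT, and 27.5 and 30.2% in p27KO. The members were chosen by the stage change, so nothing is read from the stage counts. With the block the interaction of Cnn2, -0.01 as reported, was 0.0953, with crossed numbers 0.0184, with DESeq2 size factors 0.0136, with DESeq2 0.0200 and with no filter 0.0038, all far within its standard error of 0.65.

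Genotype and interaction values of some members changed sign when single libraries were left out, none of them past the threshold. Not all were near 0: Acta2 at 2 + 1 DIV, 0.65 in the main fit, was -0.24 without p27KO DIFF replicate 2. At 2 + 1 DIV the genotype differences ran from -0.4019 to 0.2666 for Tagln2, from -0.2367 to 1.1946 for Acta2, from -0.0450 to 0.4431 for Cnn2 and from -0.0730 to 0.3898 for Myl9. In neurospheres they ran from -0.0901 to 0.2873 for Tagln, from -0.4223 to 0.2022 for Tagln2, from -0.4469 to 0.6658 for Cnn2, from -0.0157 to 0.1077 for Cnn3, from -0.0463 to 0.7077 for Myl9 and from -0.4033 to 0.0201 for Tpm1. The interaction ran from -0.4541 to 0.6741 for Cnn2 and from -0.6193 to 0.1855 for Myl9. The cause was not tested. Over all genes, edgeR and DESeq2 called 262 and 631 between genotypes at 2 + 1 DIV, 2 and 40 in neurospheres and 50 and 157 in the interaction. Tagln3, Cnn1 and Tpm2 held few counts, and fitted without a filter had adjusted p-values of 0.607, 0.859 and 1.0 between genotypes at 2 + 1 DIV by edgeR. Without division by length, Tagln2 took 99.28% of the transgelin counts in p27KO neurospheres, and Tagln3 took 0.3109% in WT and 0.3683% in p27KO neurospheres. With a pseudocount of 0.5, Mthfd1l took the place of Lyar among the genes most like Tagln2. The replicate block within genotype cannot give genotype differences at a single stage.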

Other observations

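Some genes that did not pass the filter were nevertheless higher at 2 + 1 DIV in every library. Ccn2, which encodes connective tissue growth factor, lay at 1.615, 0.6382 and 0.5072 CPM in WT neurospheres and at 4.173, 10.73 and 8.461 CPM in WT cells at 2 + 1 DIV. In p27KO it lay at 0.661 and 0.8853 CPM in neurospheres and at 16.02 and 20.55 CPM at 2 + 1 DIV, above all 3 WT libraries of that stage. The cardiac alpha-actin gene Actc1 had 4 to 7 counts per neurosphere library and 8, 44, 33, 45 and 35 counts at 2 + 1 DIV, with the lowest of these in WT DIFF replicate 1. Both were singled out after their values were seen. Ankrd1, another target of the same pathways, had 0 counts in all libraries.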
